A study of Mus musculus with 6 samples.

Results

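A set of 10 genes of inflammatory cell death and its sensors was followed in enteric glial cell (EGC) cultures with and without lipopolysaccharide (LPS), a component of the outer membrane of Gram-negative bacteria. These were the receptors Nod1, Nod2, Nlrp3 and Nlrp1b, the adaptor Pycard, the proteases Casp1 and Casp4, the pore former Gsdmd, and the necroptosis genes Ripk3 and Mlkl. Members were taken by gene symbol from the count tables, each symbol matched 1 identifier, and all 10 were among the 46603 identifiers counted and among the 15226 that passed the filter on low counts. The data were 6 poly(A) RNA-seq libraries of neurosphere-derived EGCs from the intestine of C57BL/6J mouse embryos at E14.5, with 3 control libraries that received no treatment and 3 libraries of cells given 100 ng/ml LPS for 12 h. All cells had been cultured as neurospheres with EGF and FGF and then grown as an adherent layer in serum, so both groups share that history. Because whole intestine was the starting tissue and no sort was described, the cultures could hold other cell types. Marker transcripts of macrophages, mesenchymal cells, smooth muscle and neurons were found in all 6 libraries. The labels did not say whether the libraries of a group came from separate cultures or animals, so p-values measure the spread between these libraries, which may be technical.

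As background, NOD1 and NOD2 are cytosolic sensors of bacterial peptidoglycan that signal through the kinase RIPK2. NLRP3 and NLRP1B nucleate inflammasomes, in which the adaptor ASC (encoded by Pycard) can bring caspase-1 together for activation, and caspase-1 then matures the precursors of IL-1β and IL-18. Mouse Casp4 encodes caspase-11, which binds LPS in the cytosol, and both caspases cut gasdermin D, whose amino-terminal part opens pores in the plasma membrane during pyroptosis. RIPK3 phosphorylates the pseudokinase MLKL, which breaches the membrane in necroptosis. These steps are set by protein cleavage, phosphorylation and assembly, none of which RNA counts measure.

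The libraries held between 18775316 and 23664312 counts each. The libraries numbered 3 stood apart in both groups by their macrophage transcripts. The summed level of 12 macrophage markers was 4218, 5477 and 12940 CPM (counts scaled to a common normalised library size) in control replicates 1, 2 and 3 and 4096, 5314 and 20357 CPM in LPS replicates 1, 2 and 3. None of these 12 markers was at 0 in any library. All 6 neuron markers were lower in the libraries numbered 3 than in the others of their group, with median ratios of 0.56 in control and 0.60 in LPS. The summed level of 8 glial markers ranged from 263.8 to 377.2 CPM in control and from 306.3 to 324.1 CPM in LPS. That of 6 mesenchymal markers, among them Col1a1 and Col3a1, averaged 15463 CPM in control and 15150 CPM in LPS. Sums over unlike genes do not give shares of cells, and the levels of the 10 genes are those of the whole culture. Single glial markers differed: Sox10 lay between 73.8 and 100.7 CPM in all 6 libraries, S100b was lower in LPS (log2 fold change -1.91, edgeR adjusted p = 0.0238) and Fabp7 higher (1.29, 0.0122). The 6 smooth muscle markers, among them Acta2 and Myh11, all fell with LPS (median log2 fold change -1.85), from a summed 2413 ± 127 to 806 ± 149 CPM (SD, n = 3 each). The part of these shifts in the changes of the 10 genes was not tested. In bulk RNA, a change in the number of cells of one type and a change in RNA per cell cannot be told apart. The tests of the 10 genes and of the other pathway genes were therefore also run without both libraries numbered 3, and with the replicate number as a block, although the data set the libraries numbered 3 apart and did not tell numbers 1 and 2 apart.

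Most of the 10 genes were higher after LPS, from the peptidoglycan receptors to the pore formers. Comparing LPS with control by the edgeR quasi-likelihood test, Mlkl, Casp4, Nod1, Gsdmd, Nod2 and Nlrp3 rose, 6 of 10 genes at an adjusted p-value under 0.05, against 9.09% of all genes tested that were called higher. None was called lower, where 6.71% of all genes were. The balance over all genes turned with the scaling, to 6.9% higher and 10.4% lower with upper-quartile factors and 6.48% and 13.5% with library size alone, and under both 6 members were called higher and 0 lower. No member was lower at an unadjusted p-value under 0.05, where 16% of all genes were lower and 16.1% higher, and DESeq2 and limma-voom each called 0 lower, against 11% and 6.05% of all genes. In 7 of the 10 genes every LPS library exceeded every control library, a pattern found in 19.3% of all genes. Casp1 was among these. It was not called by the unpaired quasi-likelihood test or limma-voom, and it was called by DESeq2 and the edgeR exact test. DESeq2 thus called 7 members higher (13.7% of all genes) and limma-voom 6 (8.21%). With the replicate number as a block, Casp1 was added to those called higher and Nlrp1b was called lower, so that 7 were higher (15.4% of all genes) and 1 lower (14.9%). Without the libraries numbered 3, Ripk3 was called higher as well, giving 8 genes higher and 1 lower, against 22.6% and 20.4% of all genes. The median log2 fold change of the 10 genes was 1.68 and that of all genes tested was -0.02.

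**Figure D1:**
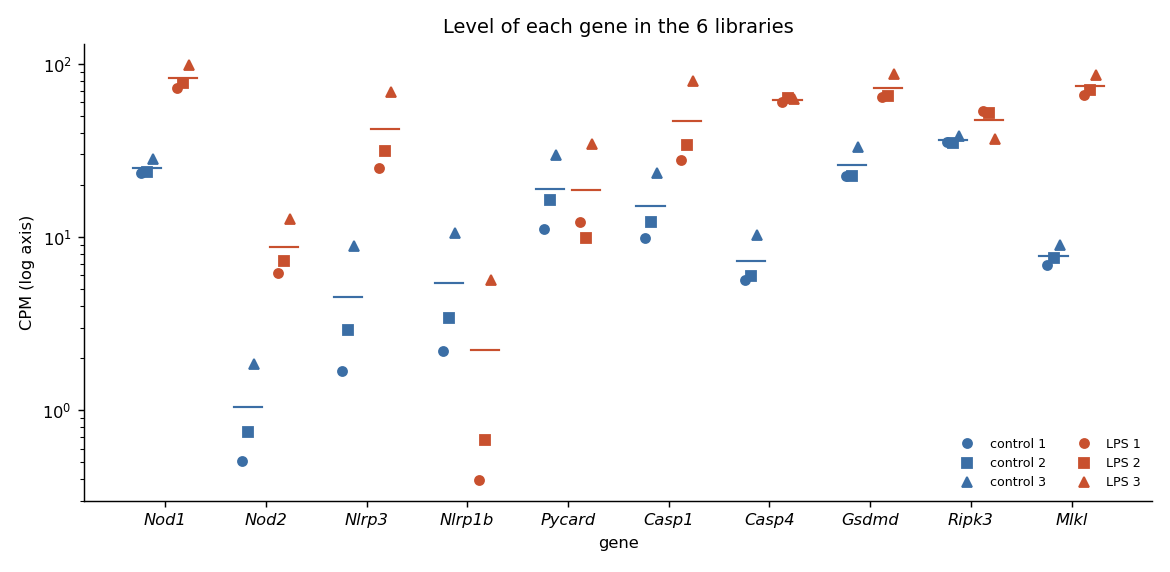
Level of each of the 10 genes in CPM on a log axis, with control libraries in blue, LPS libraries in red, the marker shape giving the replicate number and the horizontal line the group mean (n = 3 each). Mlkl, Casp4, Nod1, Nod2, Nlrp3, Casp1 and Gsdmd have separate groups, whereas Pycard, Ripk3 and Nlrp1b overlap.

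First, the peptidoglycan receptors were examined. Nod1 (chromosome 6, 54923949 to 54972612, GRCm38, minus strand, ENSMUSG00000038058) was at 23.3, 23.7 and 28.0 CPM in control replicates 1, 2 and 3 and at 72.5, 77.1 and 98.7 CPM in LPS replicates 1, 2 and 3. The lowest LPS library thus lay far above the highest control library. Nod1 rose 3.31-fold in means, from 25 ± 2.6 to 82.8 ± 14 CPM (SD, n = 3 each), with a log2 fold change of 1.73 (SE 0.15, edgeR adjusted p = 0.00215). It kept its call in each of the 16 alternatives, with log2 fold changes from 1.57 to 1.83.

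Nod2 (chromosome 8, 88647315 to 88688474, plus strand, ENSMUSG00000055994) was the scarcest of the 10 genes in control, with 12, 17 and 45 counts. Its level was 0.508, 0.753 and 1.86 CPM in control replicates 1, 2 and 3 and 6.23, 7.30 and 12.8 CPM in LPS replicates 1, 2 and 3. Within each group the third library was the highest, and the groups did not overlap. The log2 fold change of Nod2 was 3.06 (SE 0.56, edgeR adjusted p = 0.0207). This call was lost without control replicate 1 (adjusted p = 0.070), control replicate 2 (0.102), LPS replicate 1 (0.0531) or LPS replicate 2 (0.0693).

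Next, the inflammasome-forming receptors were compared, which had fold changes of opposite sign. Nlrp3 (chromosome 11, 59541568 to 59566956, plus strand, ENSMUSG00000032691) was at 1.69, 2.92 and 8.89 CPM in control replicates 1, 2 and 3 and at 25.2, 31.2 and 68.9 CPM in LPS replicates 1, 2 and 3. All LPS libraries were higher than all control libraries, although the spread within each group was wide. Nlrp3 rose with a log2 fold change of 3.21 (SE 0.73, edgeR adjusted p = 0.0377). Its adjusted p was 0.103 without control replicate 1, 0.148 without control replicate 2, 0.0733 without LPS replicate 1 and 0.0977 without LPS replicate 2. Matched by replicate number, the log2 ratios of LPS to control were 3.89, 3.42 and 2.96, and with the block the adjusted p was 0.00151.

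Nlrp1b (chromosome 11, 71153102 to 71230733, minus strand, ENSMUSG00000070390) was at 2.20, 3.41 and 10.6 CPM in control replicates 1, 2 and 3 and at 0.395, 0.669 and 5.65 CPM in LPS replicates 1, 2 and 3. The lowest values rest on 8 and 12 counts in LPS replicates 1 and 2. The LPS library numbered 3 lay above the control libraries numbered 1 and 2, so the groups overlapped, but each LPS library was below the control library of the same number, with log2 ratios of -2.48, -2.35 and -0.90. Over all 6 libraries unpaired, the log2 fold change of -1.27 (SE 1.10, 95% interval -3.97 to 1.43) was not called, with an edgeR adjusted p of 0.482, and it ran from -3.34 to -0.31 with 1 library left out. With the replicate block Nlrp1b was called lower (-1.70, SE 0.38, adjusted p = 0.0347), as it was without the libraries numbered 3 (-2.38, SE 0.39, 0.00352). Its neighbours in the Nlrp1 cluster, Nlrp1a and the pseudogene Nlrp1c-ps, shared 1.45% of the 50-base words of its transcripts, so a small part of its reads could be shared with them.

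The adaptor and the effector proteases were then described. Pycard (chromosome 7, 127989708 to 127993867, minus strand, ENSMUSG00000030793), which encodes ASC, was at 11.1, 16.3 and 29.5 CPM in control replicates 1, 2 and 3 and at 12.3, 9.86 and 34.3 CPM in LPS replicates 1, 2 and 3. The groups overlapped, with the third library the highest in each. Its log2 fold change was -0.02 (SE 0.58, 95% interval -1.44 to 1.41, edgeR adjusted p = 0.988), and with the replicate block it was -0.11 (SE 0.21, 0.723). Leaving out control replicate 3 (0.47), LPS replicate 1 (0.22) or LPS replicate 2 (0.29) turned the sign positive, with no call in any of these fits. A transcript model of the class to be experimentally tested (Gm45205) on the other strand overlaps 12.8% of the Pycard exons, and the strand setting of the counting was not given in the sources used here.

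Casp1 (chromosome 9, 5298517 to 5307265, plus strand, ENSMUSG00000025888) was at 9.83, 12.3 and 23.3 CPM in control replicates 1, 2 and 3 and at 27.8, 33.9 and 79.2 CPM in LPS replicates 1, 2 and 3. The groups were separate, but control replicate 3 came close to LPS replicate 1. The log2 fold change of 1.63 (SE 0.52) had an edgeR adjusted p of 0.0876 and was not called, whereas DESeq2 (adjusted p = 0.00951) and the edgeR exact test (0.0161) called it. With 1 library left out it ran from 1.02 to 2.10. Matched by number, the ratios were alike, at 1.50, 1.47 and 1.77 on the log2 scale, and with the block Casp1 was called (1.58, SE 0.09, adjusted p = 0.00142). It was also called without the libraries numbered 3 (1.50, SE 0.14, 0.000351).

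Casp4 (chromosome 9, 5308828 to 5336783, plus strand, ENSMUSG00000033538) starts 1.56 kb beyond the end of Casp1 on the same strand. Its level was 5.68, 5.93 and 10.3 CPM in control replicates 1, 2 and 3 and 60.1, 63.5 and 62.8 CPM in LPS replicates 1, 2 and 3. All 3 LPS libraries were nearly equal, whereas control replicate 3 lay above control replicates 1 and 2. Matched by number, the log2 ratios were 3.40, 3.42 and 2.60. The rise was 8.49-fold in means, with a log2 fold change of 3.08 (SE 0.26, edgeR adjusted p = 0.0019). The call held in all 16 alternatives, and the highest adjusted p was 0.0176. Casp1 and Casp4 shared no 50-base word with each other.

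Gsdmd (chromosome 15, 75862327 to 75867408, plus strand, ENSMUSG00000022575), the substrate of both proteases, was at 22.4, 22.4 and 33.1 CPM in control replicates 1, 2 and 3 and at 64.5, 65.0 and 87.3 CPM in LPS replicates 1, 2 and 3. Its LPS libraries were all clearly above the controls. Gsdmd rose 2.78-fold in means, with a log2 fold change of 1.48 (SE 0.21, edgeR adjusted p = 0.0105). The call was lost without control replicate 1 (adjusted p = 0.0535) or control replicate 2 (0.0613).

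The necroptosis kinase and its substrate changed to unequal extents. Ripk3 (chromosome 14, 55784995 to 55788865, minus strand, ENSMUSG00000022221) was at 35.4, 35.0 and 38.2 CPM in control replicates 1, 2 and 3 and at 53.6, 52.0 and 36.8 CPM in LPS replicates 1, 2 and 3. LPS replicates 1 and 2 exceeded all controls, while LPS replicate 3 lay within the control range. The log2 fold change was 0.39 (SE 0.16, 95% interval 0.01 to 0.77) with an edgeR adjusted p of 0.149. Ripk3 was called higher without LPS replicate 3 (0.54, adjusted p = 0.00928) and without both libraries numbered 3 (0.61, SE 0.06, 0.00054), and it was not called with the replicate block (adjusted p = 0.131).

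Mlkl (chromosome 8, 111311797 to 111338177, minus strand, ENSMUSG00000012519) had the largest log2 fold change of the 10 genes in the unpaired fit, just above Nlrp3, and the lowest adjusted p. It was at 6.86, 7.57 and 8.97 CPM in control replicates 1, 2 and 3 and at 65.8, 70.9 and 85.8 CPM in LPS replicates 1, 2 and 3. The groups were far apart and each was narrow. Mlkl rose 9.51-fold in means, from 7.80 ± 1.07 to 74.2 ± 10.4 CPM (SD, n = 3 each), with a log2 fold change of 3.25 (SE 0.16, edgeR adjusted p = 0.0003). Matched by number, the log2 ratios were 3.26, 3.23 and 3.26. Over the 16 alternatives the log2 fold change ran from 3.09 to 3.38 and the highest adjusted p was 0.00598. All 10 genes are annotated as protein-coding.

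**Figure D2:**
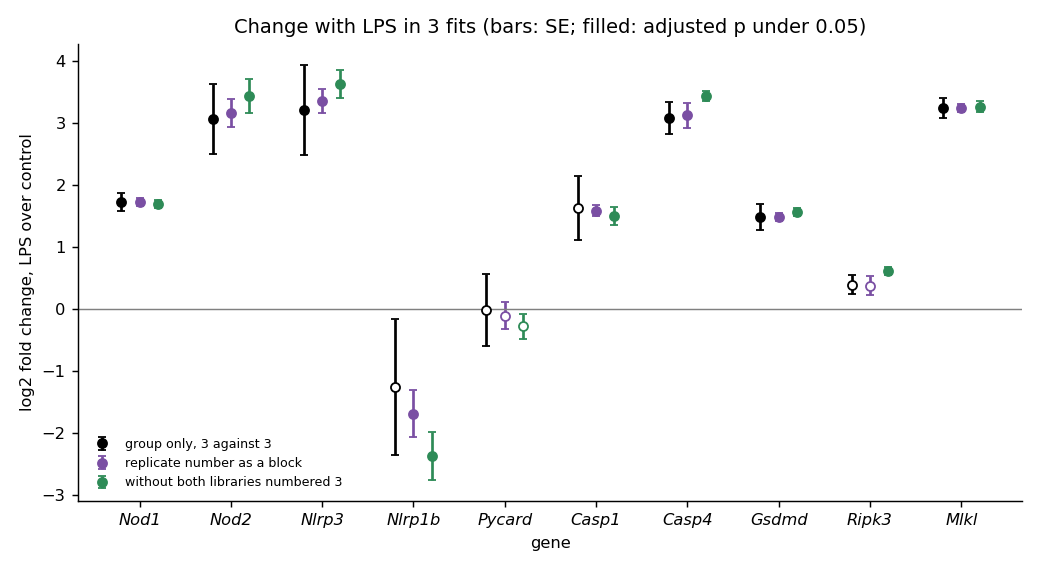
Log2 fold change of each gene, LPS over control, from the edgeR fit on the group alone (black), with the replicate number as a block (purple) and without both libraries numbered 3 (green), with bars showing the SE and filled points an adjusted p under 0.05. Mlkl stays near 3.25 in all 3 fits, Casp1 and Nlrp1b become called once number is taken into account, and Pycard stays near 0.

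Because several of the genes moved together, their promoters were read for motifs of factors that act downstream of LPS and interferons. RefSeq windows of GRCm38.p6, from 250 bases before to 50 after a start site, were matched for 9 of the 10 genes by symbol, in 13 windows. Motifs were searched on both strands: the NF-κB consensus, the interferon-stimulated response element (ISRE, GAAANNGAAA), the gamma-activated site (GAS, TTCNNNGAA, which reads the same on both strands) and the AP-1 site (TGANTCA, likewise). The NF-κB consensus was found in windows of Casp4 and Nlrp3, and it occurs in 4.51% of 32851 windows of all genes. GAS was found in a window of Nod1, against 8.30% of all windows. ISRE and AP-1, found in 3.44% and 7.81% of all windows, had no match in the members' windows, which says only that these letters are absent there. The 250 bases before the start are printed 5′ to 3′ for the neighbours Casp1 and Casp4, for Nlrp3 as the other gene with an NF-κB match, and for Mlkl as the gene with the lowest adjusted p. They lie at chr9:5298267-5298516 and chr9:5308599-5308848 (plus strand), chr11:59541319-59541568 (plus strand) and chr8:111338206-111338455 (minus strand), and capitals mark the NF-κB matches.
Casp1: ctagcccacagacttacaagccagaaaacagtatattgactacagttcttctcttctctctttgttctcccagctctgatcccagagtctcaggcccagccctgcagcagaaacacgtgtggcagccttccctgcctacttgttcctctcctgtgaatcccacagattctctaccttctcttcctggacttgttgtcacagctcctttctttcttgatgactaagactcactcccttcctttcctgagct
Casp4: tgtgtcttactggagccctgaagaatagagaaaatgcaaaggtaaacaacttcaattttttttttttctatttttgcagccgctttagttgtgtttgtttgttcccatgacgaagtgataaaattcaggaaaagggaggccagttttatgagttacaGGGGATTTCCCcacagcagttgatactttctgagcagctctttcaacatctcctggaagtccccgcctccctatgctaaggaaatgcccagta
Nlrp3: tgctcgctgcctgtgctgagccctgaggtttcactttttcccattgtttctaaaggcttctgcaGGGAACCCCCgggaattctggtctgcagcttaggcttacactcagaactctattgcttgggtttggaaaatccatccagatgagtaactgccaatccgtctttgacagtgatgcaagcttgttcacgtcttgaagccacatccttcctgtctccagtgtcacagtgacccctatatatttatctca
Mlkl: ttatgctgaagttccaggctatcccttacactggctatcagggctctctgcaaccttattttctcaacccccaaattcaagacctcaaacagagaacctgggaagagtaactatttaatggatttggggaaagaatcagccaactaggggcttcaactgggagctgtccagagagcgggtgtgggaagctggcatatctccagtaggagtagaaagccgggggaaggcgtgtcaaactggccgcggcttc
In Casp4 the capitals are 2 matches that overlap each other, from -93 to -84 and from -92 to -83 relative to the start, and in Nlrp3 they are 1 match on the other strand, from -186 to -177. The second RefSeq window of Casp4, whose start lies 11 bases further on, holds the same matches. Casp1 and Mlkl have none of the 4 motifs in their windows. A match is a description of the sequence, and binding was not measured.

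The genes differed in how far they followed the libraries numbered 3. Relative to the mean of replicates 1 and 2 of the same group, control replicate 3 held 3.85 times the level of Nlrp3, 3.77 times that of Nlrp1b and 2.95 times that of Nod2. For Pycard and Casp1 these ratios were 2.15 and 2.11. They were lower for Casp4 (1.78), Gsdmd (1.48), Mlkl (1.24), Nod1 (1.19) and Ripk3 (1.09). In LPS the same ratio was highest for Nlrp1b at 10.6, followed by Pycard at 3.1, Casp1 at 2.57, Nlrp3 at 2.45 and Nod2 at 1.89. Gsdmd (1.35), Nod1 (1.32), Mlkl (1.26) and Casp4 (1.02) were close to 1, and Ripk3 was lower in LPS replicate 3 (0.698). All 12 macrophage markers were raised in the libraries numbered 3, between 2.38 and 8.84 times in control and between 2.74 and 52.2 times in LPS. Within those ranges lay Nlrp3, Nlrp1b and Nod2 in control and Nlrp1b and Pycard in LPS, and the other members were below them. The 7 glial markers tested had medians of 0.776 in control and 0.979 in LPS, and 2 and 3 of them were above 1. The highest were Gfap (1.64 in control and 2.89 in LPS) and S100b in LPS (2.23), so Gfap in LPS lay within the macrophage range. The macrophage markers changed with LPS in both directions, and their sum, most of which is Lyz2, does not show it. In the libraries numbered 1 and 2, 4 of the 12 (Adgre1, Ptprc, Fcgr1 and Itgam) were higher in LPS than in the control of the same number and 7 were lower. Adgre1, which encodes F4/80, had log2 ratios of 2.58 and 2.46 there, and Mrc1, which encodes CD206, had -4.4 and -5.0. The unpaired edgeR test called Adgre1 higher and 0 lower. With the replicate block 3 were called higher (Adgre1, Ptprc and Fcgr1) and 4 lower (Mrc1, Cx3cr1, Cd68 and Tyrobp). The part of macrophage transcripts in the levels and changes of the 10 genes was not tested.

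**Figure D3:**
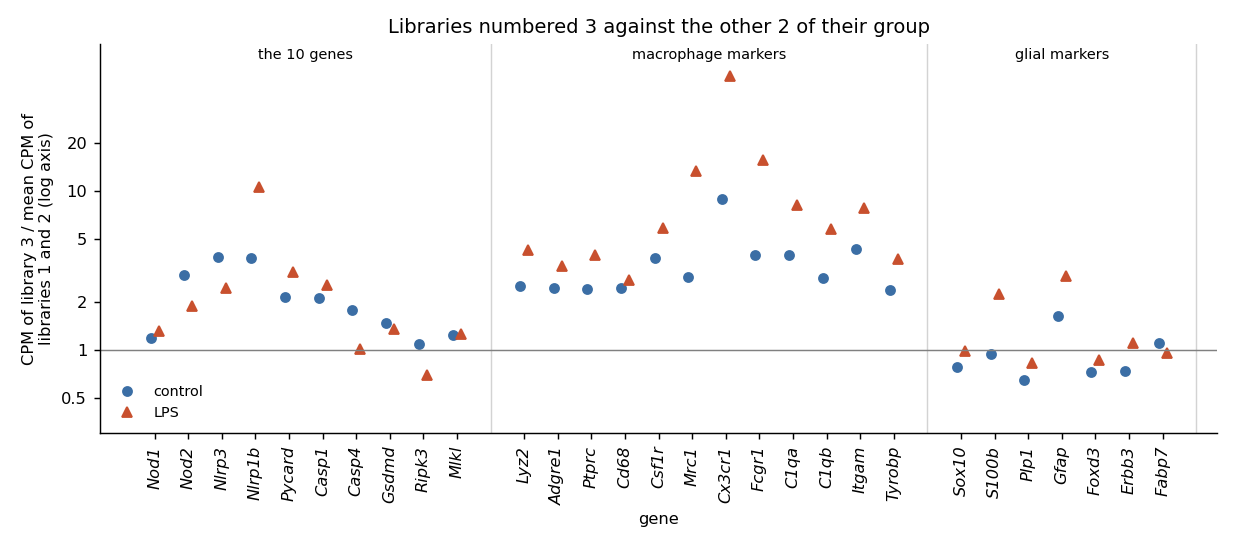
Ratio of the CPM of library 3 to the mean CPM of libraries 1 and 2 of its group, on a log axis, for the 10 genes, 12 macrophage markers and 7 glial markers that passed the filter, with control as blue circles and LPS as red triangles. Nlrp3, Nlrp1b, Nod2, Pycard and Casp1 have ratios between 1.89 and 10.6, against 2.38 or more for each macrophage marker, while Nod1, Mlkl, Gsdmd, Casp4 and Ripk3 lie between 0.698 and 1.78.

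To compare levels between genes, CPM was divided by the length of the union of a gene's exons in kb. In control, Ripk3 was the most abundant at 15.8 ± 0.767 CPM per kb (SD, n = 3), above Gsdmd at 10.9 ± 2.61 in every library. Gsdmd and Casp1 (10.1 ± 4.78) overlapped, as did Casp1 and Pycard (5.0 ± 2.5), although Casp1 was the higher of that pair within each library, and Pycard and Nod1 (4.93 ± 0.514). Mlkl followed at 3.39 ± 0.465 CPM per kb, below Nod1 and above Casp4 (1.97 ± 0.705) without overlap. Nlrp3 (1.11 ± 0.948), Nlrp1b (0.856 ± 0.718) and Nod2 (0.207 ± 0.144) closed the order. Nlrp3 overlapped Casp4, and these last genes overlapped their neighbours between libraries, but within each library the order from Casp4 to Nod2 was the same. Per kb of the longest transcript, Nlrp1b (1.25) lay above Nlrp3 (1.12) in control means. Without control replicate 3 the means of Nlrp3, Nlrp1b and Nod2 were 0.569, 0.445 and 0.126 CPM per kb.

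In LPS the order changed, and Mlkl moved to the top. Mlkl was at 32.2 ± 4.51 CPM per kb (SD, n = 3), Casp1 at 31.4 ± 18.8 and Gsdmd at 30.4 ± 5.46, and these levels overlapped. The level of Casp1 rested on LPS replicate 3, without which it was 20.6 CPM per kb, below Ripk3 at 23.0. Ripk3, at 20.7 ± 4.03, came next, below Gsdmd in all libraries. Casp4 (16.7 ± 0.483) and Nod1 (16.3 ± 2.76) overlapped, Nlrp3 was at 10.3 ± 5.85 and Pycard at 4.95 ± 3.54. Nod2 (1.75 ± 0.70) and Nlrp1b (0.355 ± 0.469) were the scarcest, with no overlap between them. Without LPS replicate 3, Pycard was at 2.91 and Nlrp1b at 0.0844 CPM per kb. Divided by the longest transcript instead, whose length is 1.90 kb for Casp4 against 3.71 kb of union exons, Casp4 was at 32.7 CPM per kb in LPS and stood next to Mlkl at 37.0 and Gsdmd at 40.3.

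**Figure D4:**
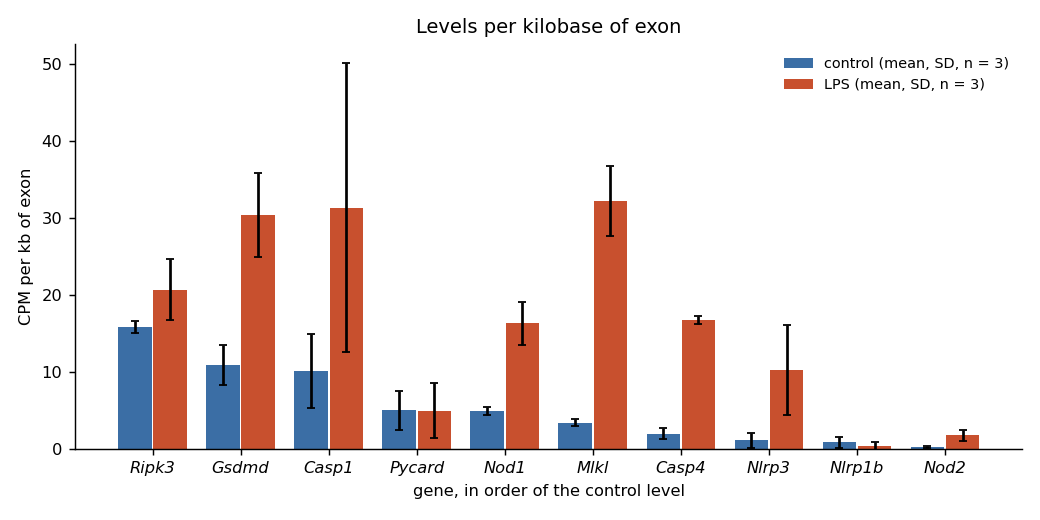
Mean level per kb of exon of each gene in control (blue) and LPS (red), with SD bars (n = 3), ordered by the control level. Ripk3 leads in control at 15.8 CPM per kb, and Mlkl, Casp1 and Gsdmd reach 30.4 to 32.2 CPM per kb in LPS.

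Finally, other genes of the same pathways were counted in 8 lists, in which 52 of the 59 genes found were tested. The edgeR test called 15 of them higher (background 9.09%) and 0 lower (6.71%). At an unadjusted p-value under 0.05, 18 were higher and 2 lower (16.1% and 16% of all genes). DESeq2 called 18 higher and 1 lower (13.7% and 11% of all genes), and limma-voom 15 and 0 (8.21% and 6.05%). With the replicate block 21 were higher and 3 lower (15.4% and 14.9% of all genes). Their median log2 fold change was 0.24.

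Among 5 genes for IL-1 and IL-18 cytokines and their inhibitors, 4 rose, against 9.09% of all genes. Il1b was at or under 3 counts in all controls and at 399.5, 499.8 and 321.9 CPM in LPS replicates 1, 2 and 3, at least 3181-fold higher against a floor of 3 counts per library (edgeR adjusted p = 0.00026). Il1a, an alarmin released from dying cells whose precursor is not cut by caspase-1, had a log2 fold change of 8.32 (SE 0.48, 0.000517). The antagonists rose less, Il1rn by 3.41 (SE 0.63, edgeR adjusted p = 0.0212) and Il18bp by 3.12 (SE 0.29, 0.00263). The Il1rn call was lost without control replicate 1 or 2, with adjusted p-values up to 0.106. Il1rn was at 62.2, 57.6 and 210.6 CPM in LPS replicates 1, 2 and 3. Its log2 fold change ran from 2.53 to 3.76 with 1 library left out. In contrast, Il18 was at 1.06, 1.24 and 2.03 CPM in control and at 1.19, 1.23 and 8.48 CPM in LPS, and was not called (edgeR adjusted p = 0.344).

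Of 11 other inflammasome sensors, 7 passed the filter. None of the 7 was called, and 0 had an unadjusted p-value under 0.05 or were called by DESeq2 or limma-voom. Of all genes, the edgeR test called 9.09% higher and 6.71% lower. At an unadjusted p-value under 0.05 these shares were 16.1% and 16%. Naip2, a receptor that pairs with NLRC4, had a log2 fold change of 0.93 (SE 0.61, edgeR adjusted p = 0.35), and the DNA sensor Aim2 had 0.65 (SE 0.65, 0.546). With the replicate block both were called higher, Naip2 at 0.86 (edgeR adjusted p = 0.0103) and Aim2 at 0.56 (0.0475). Mefv, Nlrp6, Nlrp10 and Nlrp12 did not pass the filter and were not tested. Of these, Mefv, which encodes pyrin, was counted 0, 1 and 0 times in the control libraries against 6, 5 and 26 times after LPS. In group means this was at least 5.04-fold higher against the floor of 3 counts per library. The LPS mean rested on replicate 3, at 1.36 CPM against 0.297 and 0.279 CPM in replicates 1 and 2. Nlrp6 went the other way, with 8, 3 and 4 counts in control and 2, 1 and 0 after LPS. Naip2 and Aim2 were highest in the libraries numbered 3, Naip2 with 29.3 CPM in control and 61.9 CPM in LPS.

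Among inflammasome regulators, the guanylate-binding proteins Gbp5 and Gbp2, which act on the bacterial surface and promote caspase-11 activation, rose by 7.93 (SE 0.26) and 5.81 (SE 0.27) on the log2 scale, with edgeR adjusted p-values of 0.00011 and 0.00026. Nek7, the kinase-family partner of NLRP3, ranged from 161.4 to 164.9 CPM in control and from 134.9 to 142.5 CPM in LPS. Its log2 fold change of -0.25 (SE 0.06) had an edgeR adjusted p of 0.0506, and with the block 0.0355. Txnip, which can bind NLRP3, was at -0.49 (SE 0.25, 0.233), and with the block it was called lower (-0.53, 0.0306).

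Downstream of gasdermin D, Ninj1, which mediates final rupture of the membrane, rose from 48.5, 53.1 and 59.8 CPM in control replicates 1, 2 and 3 to 133.1, 143.2 and 122.0 CPM in LPS replicates 1, 2 and 3. Its log2 fold change was 1.30 (SE 0.11, edgeR adjusted p = 0.00191). The related pore former gasdermin E (listed as Dfna5) had a log2 fold change of 0.38 and was not called, and Gsdma, Gsdmc and Gsdmc2 did not pass the filter. None of 7 other caspases was called by the edgeR test (9.09% of all genes higher and 6.71% lower), DESeq2 or limma-voom. At an unadjusted p-value under 0.05, 1 was lower, Casp2, and 0 higher (16% and 16.1% of all genes). Casp8, which restrains necroptosis, had a log2 fold change of 0.57 (SE 0.27, edgeR adjusted p = 0.20) and Casp12 0.25 (SE 0.19, 0.407).

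For NOD signalling, 2 of 10 genes rose, against 9.09% of all genes, and the median log2 fold change of the list was 0.07. Ripk2, the kinase that relays both receptors, was at 16.2, 16.8 and 20.2 CPM in control replicates 1, 2 and 3 and at 103.7, 121.3 and 41.1 CPM in LPS replicates 1, 2 and 3, a log2 fold change of 2.32 (SE 0.41, edgeR adjusted p = 0.0186). Slc15a3, a transporter of peptidoglycan fragments, rose by 2.25 (SE 0.40, 0.0193). With 1 library left out, the log2 fold changes ran from 2.03 to 2.66 for Ripk2 and from 1.98 to 2.72 for Slc15a3. In these smaller fits Ripk2 lost its call without any one library numbered 1 or 2 (adjusted p up to 0.0968) and Slc15a3 without control replicate 1 or 2 or LPS replicate 2 (up to 0.0976). The abundant Erbb2ip and Tab2 had log2 fold changes of -0.09 and 0.15 and were not called. Without both libraries numbered 3, both genes were called. The list then had 3 genes higher and 2 lower, against 22.6% and 20.4% of all genes.

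Among activators of RIPK3, 2 of 6 genes rose, against 9.09% of all genes. Zbp1, a sensor of Z-form nucleic acid that binds RIPK3 directly, went from 0.381, 0.531 and 0.744 CPM in control replicates 1, 2 and 3 to 149.5, 179.7 and 254.9 CPM in LPS replicates 1, 2 and 3, a log2 fold change of 8.44 (SE 0.35, edgeR adjusted p = 0.000213). Tlr3, the receptor for double-stranded RNA, rose by 1.89 (SE 0.22, 0.00581). Ripk1 (0.20, SE 0.20) and Tnfrsf1a (-0.05, SE 0.15) were not called. Of 8 other regulators of necroptosis, 4 rose, against 9.09% of all genes. These were Birc3 by 3.09 (SE 0.15, edgeR adjusted p = 0.00026), Tnfaip3 by 2.81 (SE 0.45, 0.0146), Cflar by 1.14 (SE 0.12, 0.00434) and Cyld by 0.35 (SE 0.06, 0.0199). Birc3, Tnfaip3 and Cflar encode proteins that restrain cell death, whereas CYLD removes ubiquitin from RIPK1 and is known to promote necroptosis. The calls of Tnfaip3 and Cyld were lost when any library numbered 1 or 2 was left out, with adjusted p-values up to 0.0856 and 0.108, and Cyld also with library size alone, without a filter and in the exact test. Birc2, named after its values were seen, had a log2 fold change of 1.25 (SE 0.32, edgeR adjusted p = 0.0522) with separate groups, and DESeq2, the exact test and the block (1.16, 0.0292) called it higher. Chmp4b and Chmp2a, members of the membrane repair machinery, were at 0.53 (SE 0.18, edgeR adjusted p = 0.0986) and 0.23 (SE 0.10, 0.192), and the block called both higher (0.0175 and 0.0446). In all, the block called 7 of these 8 genes higher (15.4% of all genes) and DESeq2 6 (13.7%).

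**Figure D5:**
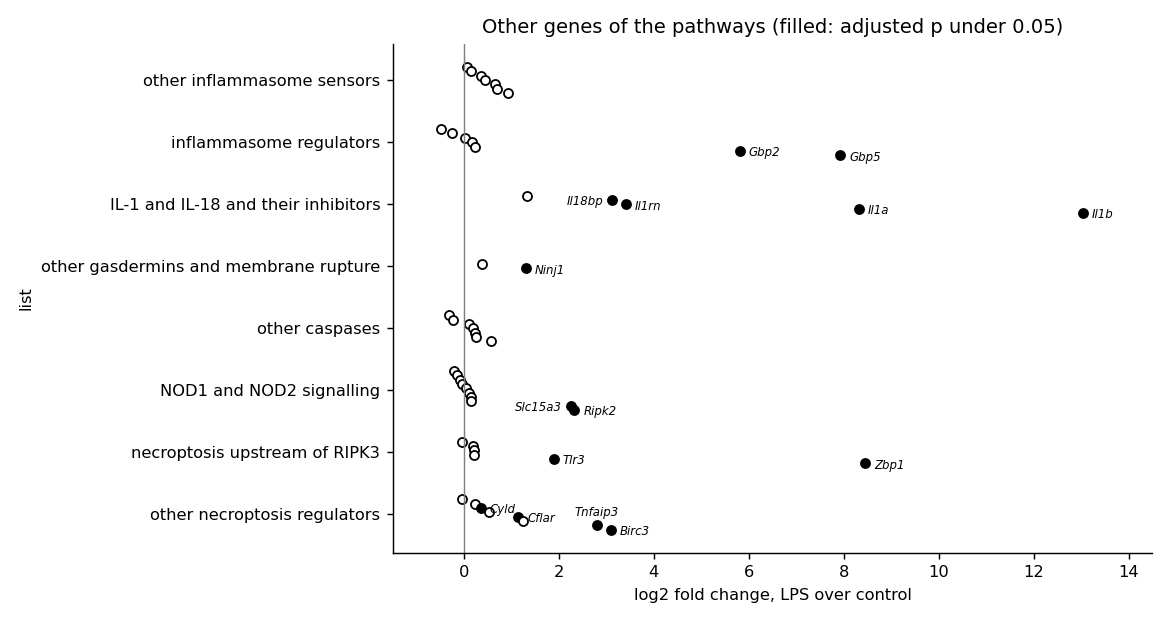
Log2 fold change, LPS over control, of 52 other pathway genes by list, with filled and named points for the 15 genes at an adjusted p under 0.05. The value of Il1b is a fit against controls at the detection floor. All 15 filled points lie to the right of 0, and no inflammasome sensor or other caspase is filled.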

How the data were processed

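Poly(A) RNA from 6 libraries was sequenced on an Illumina NextSeq500 after TruSeq stranded preparation. The authors deposited raw counts for each gene. Per the series text and processing notes, the authors trimmed reads with cutadapt 1.15, removed contaminants with Bowtie2 2.3.3.1, aligned to GRCm38 with STAR 2.5.2b, sorted with SAMtools 1.5, and listed featureCounts 1.5.3. Strand setting and treatment of multiply aligned reads were not given in the sources used here. A table of the whole series held the same counts and was not used.

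Counts were filtered with filterByExpr (minimum count 10, minimum total 15), scaled by TMM factors (0.917 to 1.08) and tested, LPS against control, in edgeR 4.0.16 under R 4.3.3 by its quasi-likelihood test, two-sided, with group as the only term. Benjamini-Hochberg adjustment ran over all 15226 genes, with calls under 0.05. SE is the absolute log2 fold change over the square root of F. Intervals cover 95%. Floors (3 counts, 0.124 to 0.167 CPM) cover counting error only. Coordinates and exon lengths are from GENCODE M21, motif windows from RefSeq (GRCm38.p6). Alternatives were other scalings and filters, DESeq2 1.42.0, the edgeR exact test, limma-voom (limma 3.58.1), a replicate block, and libraries left out.

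What a replicate number marks was not given in the sources used here. Deviations from group means correlated across 15226 genes at r = 0.513, 0.334 and 0.613 between libraries numbered 1, 2 and 3, all above 0.1, so a block was fitted. Control 1 with LPS 2 (0.419) exceeded control 2 with LPS 2 (0.334), and control 2 with LPS 1 was at 0.323, so this separates number 3 from the others and does not tell 1 from 2. No 2 libraries held identical counts.

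Members and lists were chosen with earlier results of these data known. The text names all members and, per list, up to 4 called genes with at least 5 CPM and up to 2 abundant uncalled ones. Casp2, and the sensors and gasdermins under the filter, were named after their values were seen. Irgb10 matched no symbol. Marker lists of mesenchymal cells, smooth muscle and neurons had 2 genes higher and 0 lower, 0 and 6, and 0 and 1, and of glia 1 and 1.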

Additional observations from a re-analysis of the deposited data

How the results depend on the processing

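The number of members called higher was 6 with all libraries and ran from 3 (without control replicate 1 or 2) to 7 (without LPS replicate 3) with 1 library left out, where the shares of all genes called higher were 3.03%, 2.44% and 12.6%. It was 8 without both libraries numbered 3, where 1 was called lower (22.6% and 20.4% of all genes). Of the other pathway genes, from 10 to 17 were called higher and from 0 to 2 lower with 1 library left out, and 23 and 5 without both libraries numbered 3. With the replicate block, 7 members were higher and 1 lower, and 21 and 3 pathway genes (15.4% and 14.9% of all genes). Its log2 fold changes were 1.58 for Casp1 and -1.70 for Nlrp1b, both called, and it changed no other member's call. Pathway genes called lower numbered 2 with upper-quartile factors or library size alone, and 1 with DESeq2 or with at least 10 counts in every library, a filter that removed Nlrp1b. Casp1 was called by DESeq2 (1.65) and the edgeR exact test (1.63).

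Without both libraries numbered 3, the log2 fold changes were -2.38 for Nlrp1b, 1.50 for Casp1 and 0.61 for Ripk3, all called. With 1 library left out they ran from 2.64 to 4.19 for Nlrp3, 2.69 to 3.80 for Nod2, -0.78 to 0.47 for Pycard, 1.32 to 1.71 for Gsdmd, 0.30 to 0.54 for Ripk3, -3.34 to -0.31 for Nlrp1b and 1.02 to 2.10 for Casp1. Nod1, Casp4 and Mlkl kept direction and call in all 16 alternatives. Per kb of the longest transcript, control levels were 5.80 CPM per kb for Nod1, 3.85 for Casp4, 14.49 for Gsdmd, 18.4 for Ripk3 and 3.89 for Mlkl, and LPS levels 19.2 for Nod1, 32.7 for Casp4, 40.3 for Gsdmd and 37.0 for Mlkl. The length used accounts for these shifts by construction, and the cause of the others was not tested. Depth limits Nod2 in control and Nlrp1b in LPS, with counts as low as 12 and 8.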

Other observations

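The balance within pairs of genes that act together differed between the groups. Ripk3 per kb of exon was 5.18, 4.65 and 4.28 times the level of Mlkl in control replicates 1, 2 and 3, and 0.818, 0.736 and 0.432 times in LPS replicates 1, 2 and 3. Thus the kinase transcript exceeded that of its substrate in all control libraries and lay below it in all LPS libraries. For Casp1 relative to Casp4 the ratios were 4.29, 5.12 and 5.58 in the control libraries, whereas they were 1.15, 1.32 and 3.12 after LPS, in the same order of libraries and with no overlap. Per kb of the longest transcript, Casp1 relative to Casp4 was 2.20, 2.63 and 2.86 in control and 0.588, 0.678 and 1.6 after LPS, so whether Casp1 exceeded Casp4 after LPS depends on the length used. Ripk3 relative to Mlkl stayed above 1 in control and below 1 after LPS with either length. These ratios were chosen after the levels were seen and carry no test, and RNA levels do not give the balance of the proteins.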
